A study of Sus scrofa domesticus with 6 samples.

Results

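XCR1-gated dendritic cells of the pig lung were described from droplet single-cell RNA libraries of domestic pigs in a lung transplantation model. Cells were chosen by their own counts, so the genes below named in the rule carry no result. A cell entered when it had at least 1000 UMIs (molecular barcodes, so that each captured transcript counts once), at least 1 XCR1 UMI, at least 10 UMIs of HLA-DRA and CD74 together, fewer than 2 of the chemokine CCL22, and 0 of the B-cell genes MS4A1 and CD79A, the T-cell gene CD3E and the macrophage gene CD163. The rule found 256 cells among 24932 cells of that depth in 5 libraries, which held 27505 cells of the 43322 in the series. The 3 control libraries, made from the whole unsorted cell suspension of donor right lungs after retrograde perfusion, gave 59, 107 and 73 of them. The other 17 cells, 7 and 10, came from 2 libraries of transplanted lungs, stored cold for 24 hours and reperfused for 8 hours (ischemia-reperfusion injury, IRI), whose cells had been sorted as carrying CD45, the surface protein of blood-derived cells. The sort was applied to grafts only, so its effect and that of the injury cannot be told apart. The labels speak of 3 lung pairs without tying libraries to them, and the single CD45-negative graft library was outside the rule.

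Conventional type 1 dendritic cells (cDC1) are a scarce lineage of antigen-presenting cells that depends on the transcription factors IRF8, BATF3 and ID2 and on the cytokine receptor FLT3. They take up material from dying cells, present its peptides on MHC class I to CD8 T cells (cross-presentation), and carry XCR1, the receptor for the chemokine XCL1 of NK cells and CD8 T cells. When dendritic cells mature and migrate to lymph nodes they switch on CCR7, CCL22, FSCN1 and costimulatory molecules, and in the lung they share the tissue with CD163-positive macrophages.

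The 5 libraries held between 19098567 and 33549585 UMIs each. Cell names were running numbers in every library, so shared barcodes could not be counted. None of the gated cells (0) had a profile identical to another. Of the gated control cells 4, 13 and 12 were among the top 6% of doublet scores of their library, against 2 of 7 and 3 of 10 in the grafts, and none was removed. No mitochondrial gene was listed in the graft libraries, whereas mitochondrial genes took 4.95%, 5.03% and 4.78% of the UMIs of gated control cells. The labels do not say that the controls are separate animals, so p-values measure the spread between these libraries only. Intervals cover counting error only.

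In the controls the gate picked cells with a cDC1 profile. They held a median of 10010, 8484 and 8784 UMIs, against 2856, 3117.5 and 3091 for all cells of 1000 or more UMIs, and a median of 5, 6 and 6 XCR1 UMIs. XCR1 lies on chromosome 13 (29150376 to 29233802, Sscrofa11.1). Its summed level, as CPM, its UMIs scaled to a fixed total of UMIs of the gated cells (1e+06), was 723, 868 and 692, which was 108, 109 and 104 times that of all other cells of each control. As the gate required XCR1, HLA-DRA and CD74, these values describe the choice and were not tested. HLA-DRA, the alpha chain of an MHC class II molecule, stood at 10488, 9826 and 9725 CPM. CST3, the protease inhibitor cystatin C, was not used by the gate and stood at 23374, 22347 and 21821 CPM against 1392, 1958 and 1683 CPM in all other cells. IDO1, which breaks down tryptophan and is often named as a cDC1 gene, was low: 81.0, 166 and 88.7 CPM, with a UMI in 13.6%, 20.6% and 19.2% of the gated cells. XCR1, HLA-DRA and CST3 were thus high in every control and IDO1 was detected in a minority of cells. CLEC9A, another defining gene, was not analysed here.

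Cells close to the limits of the gate were compared as a description. The 40 control cells with a single XCR1 UMI summed to 79.0 CPM of CADM1, an adhesion molecule of cDC1, and the 20 cells with 2 XCR1 UMIs to 153 CPM. The 935 cells that met every other condition with 0 XCR1 UMIs summed to 28.2 CPM. Of cells left out for CCL22 alone, the 34 with 2 or more CCL22 UMIs held 346 CPM of CADM1 and 25945 CPM of CST3, close to the 320 and 22457 CPM of the gated cells. The 12 cells left out for CD163 held 76.5 CPM of CADM1, and the 32 left out for a lymphoid gene held 112 CPM. At the class II limit, 6 cells with 10 to 14 and 5 cells with 5 to 9 UMIs of HLA-DRA and CD74 had no CADM1 UMI, at 35724 and 27842 CPM of CST3.

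Genes most like XCR1 were ranked by the ratio of their level in gated cells to that in all other cells, taking the control with the lowest ratio, among 2222 genes of at least 50 CPM in every control's gate. This ratio includes the choice of cells and is given with no test. In all, 22 genes reached 10 in every control, 17 of them with a symbol. DNASE1L3, a secreted DNase that digests DNA of dying cells (chromosome 13, 39958384 to 39976114), led with ratios of 55.8, 33.4 and 50.3, at 117, 152 and 243 CPM. TMEM40 followed at 36.8, 36.6 and 29.9, and C1orf54 at 53.1, 41.0 and 27.0. The transporter SLCO4C1 had a lowest ratio of 20.8 and CADM1 (chromosome 9, 42644487 to 42984934) one of 18.3. Next were the aminopeptidase ANPEP at 16.6, the transcription factor BATF3 (15.8, 14 and 23.0 by control), the neuropeptide receptor subunit RAMP1 at 13.5, the cytokine subunit EBI3 at 13.4 and FLT3 at 13.3. The remaining named genes were ARHGAP18, CST3, CLEC7A, PAK1, RAB32, PLD4 and SLA-DQB1, with lowest ratios from 11.5 down to 10.1. All lay well below the ratio of XCR1 itself, which is set by the gate because every gated cell had to carry it. The order of neighbours from RAMP1 to FLT3 differed by less than the spread between controls.

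**Figure D1:**
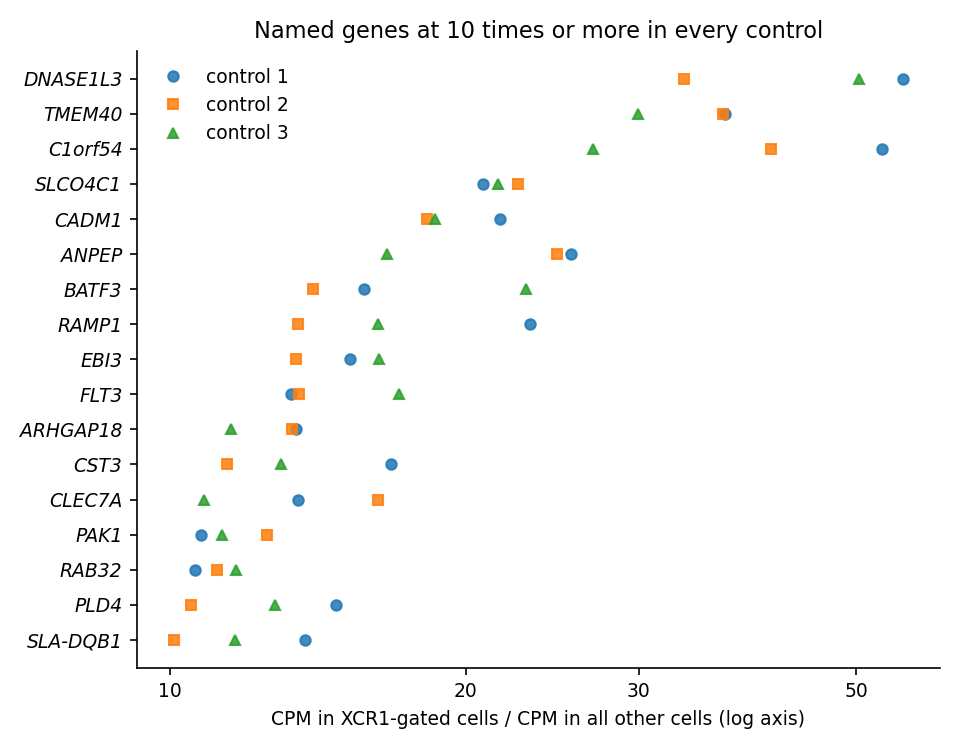
Ratio of the level (CPM) in XCR1-gated cells to that in all other cells, on a log axis, for the 17 named genes at 10 or more in every control; each symbol is 1 control library. DNASE1L3, TMEM40 and C1orf54 stand highest, and SLA-DQB1 lies just above 10 in the control with the lowest ratio.

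Gated control cells varied in how much of the profile each one showed. Of a list of 31 cDC1 identity genes, 28 had a feature, and a gated cell thinned to 1000 UMIs showed a median of 6, 5 and 6 of them. At least 5 of them were found in 37 of 59, 73 of 107 and 56 of 73 cells. The same count is not given here for other cells, and the list holds genes that are not confined to cDC1. After thinning, CST3 had a UMI in 98.3%, 100% and 100% of XCR1-gated cells. The shares were 76.9%, 91.1% and 97.1% of the CCL22-gated and 70.1%, 66.4% and 82.4% of the CD163-gated cells compared below. Cells with more XCR1 showed more of the list: 42.5% of the 40 cells with 1 XCR1 UMI reached 5 genes after thinning, 54.5% of the 55 cells with 2 to 4, and 82.6% of the 144 cells with 5 or more, with median totals of 4619, 7019 and 10614 UMIs before thinning. The cells are not replicates, and this order carries no test.

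Markers of other cell types were summed over the gated control cells. The 17 macrophage genes listed beside CD163 summed to 92.6, 336 and 97.3 CPM, with MARCO and TREM2 at 0 UMIs in each control. The 8 monocyte and neutrophil genes summed to 48.0, 246 and 147 CPM, and 15 T and NK genes to 382, 311 and 223 CPM. Genes of the other conventional dendritic lineage (cDC2, without FCER1A and CLEC10A) summed higher. They held 882, 1058 and 823 CPM in gated cells without an IDO1 UMI and 1193, 1063 and 822 CPM in those with one. Genes of plasmacytoid dendritic cells summed to 310, 341 and 357 CPM without an IDO1 UMI and to 484, 585 and 483 CPM with one. Markers of structural cells summed to 114, 914 and 853 CPM: 3 cells of control 2 held 80.4% of its structural UMIs, and 1 cell of control 3 held 73.5%. The macrophage and monocyte UMIs of control 2 also came from few cells, with 376 of them in 1 cell. TOP2A, which untangles DNA in dividing cells, had a UMI in 5, 7 and 6 gated cells (8.47%, 6.54% and 8.22%).

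The first comparison set the XCR1 gate against CCL22-gated cells, taken here as maturing dendritic cells of the same 3 controls (26, 56 and 35 cells with at least 2 CCL22 UMIs and no CD163; XCR1 was not considered, and 34 of the 117 carried it). XCR1-gated cells had more RNA of cDC1 identity genes and less of the maturation programme. Of 5876 genes tested, 120 were higher and 255 lower (2.04% and 4.34%, together 6.38%; edgeR's quasi-likelihood test on UMIs summed per library and gate with the library as block, Benjamini-Hochberg adjusted p under 0.05). The gates did not overlap over the 3 libraries for 23.6% of the genes tested. Since CCL22 set the gates apart, genes that accompany CCL22 differ in part by that choice. XCR1 was required of the XCR1 gate only, so genes that accompany XCR1 differ in part by that choice too. The 34 cells with both held 346 CPM of CADM1 and 1138 of C1orf54, against 320 and 1022 in the XCR1 gate. WDFY4 and BATF3 stood at 354 and 321 CPM in them, against 409 and 411.

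Of 21 identity genes tested, 11 were higher, 1 was lower and 9 did not pass, and their median log2 difference was 0.61 against 0.01 over all genes. CADM1 stood at 324, 297 and 348 CPM in the XCR1 gate and at 101, 128 and 164 CPM in the CCL22 gate (log2 difference 1.28, SE 0.20, adjusted p = 0.00176). WDFY4, which cDC1 need for cross-presentation, stood at 432, 381 and 429 against 163, 165 and 178 CPM (1.27, SE 0.18, adjusted p = 0.000995). Neither gene overlapped between the gates. CLNK, a signalling adaptor, was at 49.6, 57.7 and 81.6 CPM against 26.4, 5.51 and 20.1 CPM (2.05, SE 0.43, adjusted p = 0.0109), and CST3 differed by 0.90 (SE 0.13, adjusted p = 0.000991). C1orf54, at 1050, 1013 and 1010 against 582, 332 and 545 CPM, DNASE1L3 (1.39), SHTN1 (2.00) and IRF8 (0.52, SE 0.13, adjusted p = 0.0313) were also higher. BATF3 and FLT3 were shared by both gates: BATF3 was at 404, 404 and 429 against 370, 431 and 181 CPM, and FLT3 at 187, 209 and 172 against 304, 195 and 146 CPM, with adjusted p of 0.415 and 0.829.

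IDO1 was the identity gene that went the other way. It stood at 81.0, 166 and 88.7 CPM in the XCR1 gate and at 886, 585 and 195 CPM in the CCL22 gate (log2 difference -2.14, SE 0.40, adjusted p = 0.0266). The gates did not overlap, but the difference was far smaller in control 3 than in control 1, and the adjusted p was 0.145 without the library block and 0.0701 without control 2.

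Of 17 maturation genes tested, 6 were lower in the XCR1 gate, none was higher (0) and 11 did not pass, with a median of -0.91. CCR7, the receptor that guides dendritic cells to lymph nodes, was at 172, 160 and 313 CPM against 1494, 1186 and 683 CPM (-2.39, SE 0.41, adjusted p = 0.0305, and 0.0651 without control 1). CCL17, the close relative of CCL22, was at 8.27, 16.2 and 12.9 against 128, 62.4 and 83.2 CPM (-2.72, SE 0.39, adjusted p = 0.00103). Both were lower in every control. The costimulatory molecules CD40 (-0.91, SE 0.17) and CD80 (-1.22, SE 0.22), the NF-kB subunit RELB (-1.05, SE 0.26) and the IL-7 receptor IL7R (-3.57, SE 0.43) made up the rest. FSCN1, the actin bundler of mature dendritic cells, was at 9.92, 21.2 and 55.8 against 635, 725 and 230 CPM and did not pass (-4.14, SE 0.89, adjusted p = 0.142); without control 3 it did (adjusted p = 6.07e-06), as it did without the block (0.0368).

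**Figure D2:**
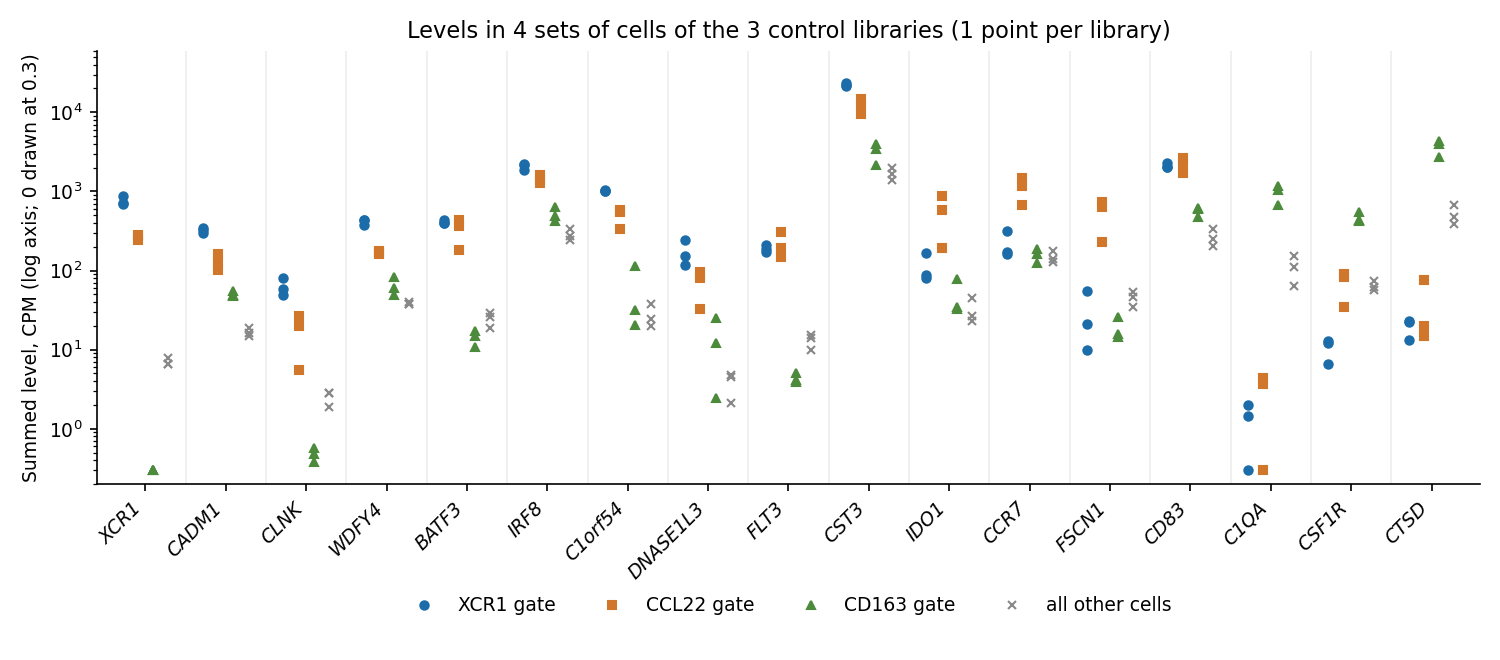
Summed level (CPM, log axis, 0 drawn at 0.3) of 17 genes in XCR1-gated, CCL22-gated and CD163-gated cells and in all other cells of the 3 controls, 1 point per library. CADM1, CLNK and WDFY4 lie highest in the XCR1 gate, CCR7 and FSCN1 in the CCL22 gate, and C1QA, CSF1R and CTSD in the CD163 gate.

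Of the transcription factors, IRF8 and TCF4 were higher in the XCR1 gate, and NFIL3, IRF4 and RELB were among 4 that were lower, of 19 tested, while 13 did not pass. TCF4 did not pass with DESeq2 (adjusted p = 0.459) or without control 1, 2 or 3 (0.106, 0.329 and 0.118), and IRF8 did not pass without control 1 (0.103) or control 2 (0.273). IRF4, which drives the other conventional dendritic lineage and maturation, was at 81.1, 70.8 and 35.8 against 119, 274 and 172 CPM (-1.64, SE 0.30, adjusted p = 0.00445). Its values did not overlap between the gates.

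A minority of antigen-presentation genes passed, beside 2.04% higher and 4.34% lower over all genes tested. The class II list had a median of 0.28, against 0.01 over all genes. Among 12 MHC class II genes tested, SLA-DMA, which loads peptide (0.71, SE 0.15), and SLA-DQB1 (0.52, SE 0.11) were higher, and the lysosomal reductase IFI30 was lower (-1.77, SE 0.21, adjusted p = 0.000298). SLA-DQB1 held 12790, 12442 and 12286 CPM against 8013, 8624 and 9313 CPM. In the class I and cross-presentation list 3 of 17 were higher: WDFY4, the peptide transporter TAP1 (0.71, SE 0.18) and the chaperone PDIA3 (0.90, SE 0.20). None (0) was lower, and the list's median was 0.38.

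Signals and receptors were mostly lower where they passed. Of 13 cytokines and chemokines 4 were lower (CCL17, CCL5, CXCL8 and CXCL11) and 9 did not pass. CXCL8, which attracts neutrophils, was at 8.27, 79.9 and 103 CPM against 167, 718 and 319 CPM (-2.74, SE 0.37, adjusted p = 0.00422, and 0.230 without the block). CSF1R, IL1R2 and CCR7 were lower among 17 receptors. Among 11 innate sensors CLEC7A (dectin-1, which binds fungal glucan) was higher, at 76.1, 79.9 and 85.8 against 26.4, 23.9 and 45.9 CPM, and TLR4, the receptor for bacterial lipopolysaccharide, lower (-3.60, SE 0.62). The CLEC7A call was lost with DESeq2 (adjusted p = 0.192) and without control 2 (0.319). CSF1R and MRC1 are macrophage genes, and the macrophage list summed to 1239, 387 and 261 CPM in the CCL22 gate; its part in these differences was not tested.

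The largest named differences included genes outside the lists. Higher were PCLAF, a clamp-binding protein of DNA replication (79.4, 64.8 and 63.0 CPM against 4.41, 23.9 and 11.5 CPM; 2.15, SE 0.41), CTTNBP2 (2.11), CLNK, FYB1 (2.02), SHTN1, SNX22 (1.99), GLO1 (1.97), MPEG1 (1.84), SMC2 and APLF (1.76). HMGB2, a chromatin protein, was the single cell-cycle gene called of 14 (0.85, SE 0.18), and did not pass without control 1, 2 or 3 (adjusted p of 0.0727, 0.0752 and 0.0706). Lower were TMEM150C (0, 6.07 and 0 CPM against 83.8, 105 and 77.5 CPM; -5.12, SE 0.57), the inflammatory cytokine IL1A (3.31, 4.05 and 1.43 against 52.9, 89.9 and 135 CPM; -4.84, SE 0.47), UPB1 (-4.75), MRC1 (-4.28), the fatty-acid-binding protein FABP5 (46.3, 45.5 and 41.5 against 1367, 773 and 281 CPM; -3.98, SE 0.32), IL7R, NXN (-3.50), SMPDL3B (-3.44), CA2 (-3.37) and TMEM176A (-3.30). FABP5 was even across the XCR1 gates and varied far more across the CCL22 gates.

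Most of these calls were lost without control 2, the library with the most cells. Then 4 genes were higher and 25 lower, and of 48 called genes named in this comparison 8 still passed (CCL17, IL1A, FABP5, TMEM150C, MRC1, CTTNBP2, SMPDL3B and CA2), against 40 without control 1 and 37 without control 3. Lost without control 1 were IRF8, HMGB2, SLA-DMA, SLA-DQB1, CLEC7A, RELB, CCR7 and TCF4. With DESeq2 38 of the 48 passed, without CLNK, TAP1, PDIA3, CLEC7A, RELB, MPEG1, SNX22, SMC2, CA2 and TCF4. Without the library block IDO1, CXCL8, DNASE1L3 and CXCL11 did not pass, the last pair at adjusted p of 0.0539 and 0.125. With CCL22-gated cells that had 0 XCR1 UMIs, an alternative added after seeing the data, 242 genes were higher, 335 lower, and 47 of the 48 passed.

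**Figure D3:**
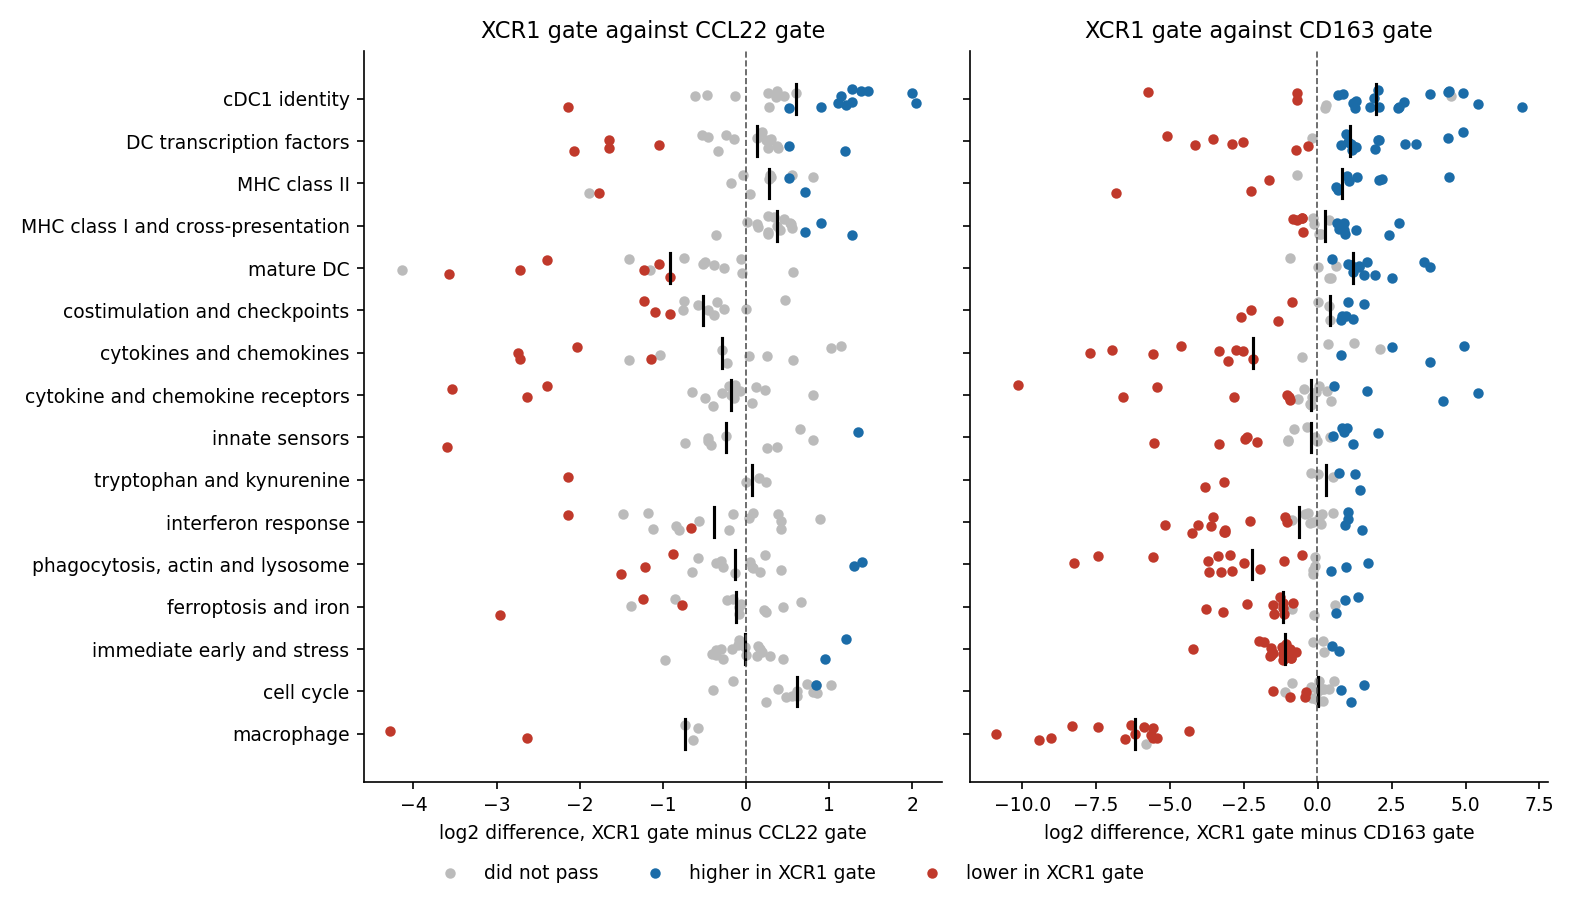
Log2 difference of each tested gene of 16 lists (1 point per gene), XCR1 gate minus CCL22 gate on the left and minus CD163 gate on the right; blue and red mark genes that passed, the black bar a list's median and the dashed line the median of all genes. Identity genes lie mostly right of the line in both panels and macrophage genes far left against the CD163 gate; fitted values of genes with 0 UMIs in a gate depend on the prior count.

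The second comparison set the XCR1 gate against CD163-gated macrophages (144, 250 and 307 cells with no XCR1 UMI). The profiles differed broadly: of 9248 genes 1807 were higher (19.5%) and 1900 lower (20.5%). Of 24 cDC1 identity genes tested 18 were higher in XCR1-gated cells and 3 lower, of 15 macrophage markers 14 were lower, and of 20 phagocytosis, actin and lysosome genes 13 were lower and 3 higher. Together 40.1% were called, and for 51.4% the gates did not overlap over the 3 libraries, which is the background for the counts that follow. Since XCR1 and CD163 set these gates apart, cDC1 and macrophage genes that accompany them differ in part by that choice.

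Genes of the dendritic lineage came first among those named for being higher. FLT3 stood at 187, 209 and 172 CPM against 3.88, 4.14 and 5.12 CPM (log2 difference 5.41, SE 0.24, adjusted p = 5.75e-12). BATF3 (chromosome 9, 130699092 to 130711719) stood at 404, 404 and 429 against 17, 10.9 and 14.8 CPM (4.90, SE 0.19, adjusted p = 9.98e-13). Both were even across the controls. CLNK, nearly absent from macrophages at 0.486, 0.376 and 0.569 CPM, had the largest upward difference of the named genes (6.91, SE 0.44). Next came ZNF366, a zinc-finger repressor of dendritic cells (5.53), CTTNBP2 (5.48), TMEM40 (5.44), RAMP1 (5.19), BCL11A (5.17), SLCO4C1 and SNX22 (4.69).

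Of 24 identity genes 18 were higher, 3 lower and 3 did not pass (median 1.98 against -0.02 over all genes). CADM1 was higher by 2.70 (SE 0.16), WDFY4 by 2.73 (SE 0.17), IRF8 by 2.07 (SE 0.10), ID2 by 1.19 (SE 0.10) and CST3 by 2.91 (SE 0.31, adjusted p = 0.0190, and 0.117 without control 2). ENPP1, NAAA and PPT1 (adjusted p = 0.0588 without the block) were lower: NAAA, which degrades fatty acid amides, stood at 119, 148 and 103 against 215, 197 and 198 CPM. C1orf54 stood at 1050, 1013 and 1010 against 20.4, 31.6 and 115 CPM. The macrophages of control 3 held several times more than those of the other two. C1orf54 did not pass (4.52, SE 0.82, adjusted p = 0.0600), whereas without control 3 its adjusted p was 6.27e-10, and without the block 0.0149.

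Transcription factors were called almost throughout, 14 of 22 higher and 7 lower. ZBTB46, a factor of conventional dendritic cells (4.42, SE 0.57), IRF4 (1.93, SE 0.29, and 0.55 with adjusted p = 0.271 in cells of 2 or more XCR1 UMIs) and IRF8 were among the higher. CEBPB, a factor of the monocyte and macrophage lineage, was among the lower at 48.0, 26.3 and 20 against 415, 575 and 729 CPM (-4.16, SE 0.39). Genes of other dendritic lineages were called too, beside 19.5% higher and 20.5% lower over all genes. Of 7 cDC2 genes tested 3 were higher (IRF4, NOTCH2 and CLEC7A) and 1 lower, and of 10 plasmacytoid genes 6 were higher and 3 lower.

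Macrophage markers marked the opposite end. Of 15 tested 14 were lower and APOE did not pass (-5.81, SE 1.77, adjusted p = 0.142, and 4.37e-08 without control 2); the list's median was -6.17. C1QA, a subunit of complement C1q, had 3 UMIs in all XCR1-gated cells and 8230 in CD163-gated cells, a ratio of 764 (95% counting interval 261 to 3703). The scavenging receptor TREM2 had 0 UMIs against 1106, at least 103-fold lower against a floor of 3 counts over the gate. With 0 UMIs as well, CCL14 was at least 102-fold lower, LCN2 97.6-fold, SLCO2B1 62.7-fold, the chemokine receptor CCR1 60.1-fold, DOK3 48.1-fold, MS4A7 43.4-fold and CD209 38.8-fold. C4BPA had 1 UMI against 3103, a ratio of 864 (155 to 34125). CD68 (-4.34, SE 0.24) was detected in both gates.

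Class II genes were higher as a group, 8 of 12, while 3 proteases or reductases of the same list were lower. SLA-DQB1 stood at 12790, 12442 and 12286 against 2608, 3348 and 3147 CPM (2.09, SE 0.08). The class II activator CIITA stood at 84.3, 147 and 127 against 30.6, 28.2 and 22.5 CPM (2.19, SE 0.22). SLA-DMA (1.31) and SLA-DMB (0.61) were higher as well. LGMN, the lysosomal protease legumain, stood at 33.1, 48.6 and 35.8 against 5383, 4531 and 4085 CPM (-6.82, SE 0.14), and CTSS (-2.26, SE 0.10) and IFI30 (-1.64, SE 0.19) were lower too. In the class I list 8 of 18 were higher, TAP1 among them (2.42, SE 0.16), and 5 lower.

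Lysosomal degradation genes were lower beyond that list. Of 20 phagocytosis, actin and lysosome genes 13 were lower and 3 higher. The aspartic protease CTSD stood at 13.2, 22.3 and 22.9 against 3948, 2730 and 4353 CPM (-7.44, SE 0.19), and the cysteine proteases CTSL (-8.23, SE 0.26) and CTSB (-2.98, SE 0.11) were lower as well. Among 16 ferroptosis and iron genes 10 were lower and 3 higher, with the iron-storage chain FTL at 1097, 1213 and 1294 against 8064, 5373 and 6297 CPM (-2.40, SE 0.13). None of these overlapped between the gates.

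Sensors, signals and costimulation divided. TLR3, the sensor of double-stranded RNA found in cDC1, was higher at 14.9, 23.3 and 27.2 against 8.25, 4.14 and 4.55 CPM (2.05, SE 0.44), as was CLEC7A (1.00, SE 0.20). TLR4 was lower at 4.96, 1.01 and 4.29 against 133, 140 and 177 CPM (-5.53, SE 0.33). Of 18 sensors 6 were higher and 5 lower. Of 17 cytokines and chemokines 4 were higher and 9 lower: TNF (-3.34, SE 0.25), CXCL8 (-5.56, adjusted p = 0.0328, not passing without control 2 or control 3 at 0.185 and 0.172) and the cytokines IL6, IL10 and IL27 were on the lower side. IL1A, which is not in that list, was lower by 7.29 on the log2 scale (SE 0.29). XCL1, the ligand of XCR1, was higher in the XCR1-gated cells themselves at 38.0, 33.4 and 8.58 against 0, 0.752 and 1.14 CPM (4.94, SE 0.66), while CD3E-positive cells held 57.4, 168 and 70.1 CPM. CD2 and CD5 of the T and NK list were higher as well (1.72 and 3.59), NKG7 and CCL5 were lower, and the list summed to 382, 311 and 223 CPM in the XCR1 gate against 743, 1090 and 781 CPM in the CD163 gate; its part in the XCL1 difference was not tested. CD86 (1.20, SE 0.15), CD40 (1.02, SE 0.13) and EBI3 (2.52, SE 0.22) were higher than in macrophages.

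The tryptophan list had 3 of 8 genes higher: IDO1 (1.28, SE 0.19, adjusted p = 2.36e-05, and 0.0504 without the block), the tryptophanyl-tRNA synthetase WARS1 (1.44, SE 0.17) and kynureninase KYNU (0.72, SE 0.20, adjusted p = 0.00710, and 0.0688 without control 2). KMO and HAAO, later steps of the same route, were lower. Of 20 immediate early and stress genes 15 were lower, with IER3 at 31.4, 62.7 and 38.6 against 802, 808 and 948 CPM (-4.21, SE 0.19) and the NF-kB inhibitor NFKBIA lower as well (-1.59, SE 0.10). Of 24 interferon-response genes 11 were lower and 4 higher. KIT, the receptor for stem cell factor, was higher (2.60, SE 0.47).

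The third comparison split the gated cells of controls 2 and 3 by IDO1, into 22 and 14 cells with a UMI and 85 and 59 without; control 1 had 8 such cells and did not enter. No gene (0 of 4835, 0.0%) passed with edgeR, 256 had an unadjusted p under 0.05, and DESeq2 called 1. The groups did not overlap for 36.4% of the genes. Identity genes summed to 27935 and 27186 CPM in cells with IDO1 and to 31537 and 31925 CPM in those without. That list includes IDO1, which set the split, and CST3, at 22347 and 21821 CPM over all gated cells of these controls. The sums are thus mainly CST3 and do not describe the other identity genes. Structural-cell markers summed to 1922 and 2993 CPM against 601 and 251 CPM, and these UMIs came from few cells. In control 2, cells with 202 and 210 structural UMIs held most of the 450 in cells with IDO1. A cell with 314 held most of the 453 in those without. In control 3, a single cell with 438 held most of the 459 in cells with IDO1. The part of structural markers in any difference was not tested. The lowest p belonged to SPARC, a matrix protein of stromal cells, at 491 and 411 against 80.9 and 14.7 CPM (adjusted p = 0.221, chosen after its values were seen). Without cells of 10 or more structural UMIs 22 genes were higher and 16 lower. A cell with no IDO1 UMI may still hold the transcript at this depth.

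The share of XCR1-gated cells was lower in both graft libraries than in any control. They made up 1.19%, 1.63% and 1.15% of cells of 1000 or more UMIs in the controls and 0.186% and 0.303% in the IRI CD45+ libraries (mean 1.32% ± 0.268, SD, n = 3, and 0.245% ± 0.0826, SD, n = 2). The groups did not overlap, with a 2-sided exact permutation p of 0.1, the smallest that 3 against 2 libraries allow. Among cells with 10 or more HLA-DRA and CD74 UMIs the shares were 6.82%, 7.90% and 6.89% against 0.753% and 0.928%, and among cells with a PTPRC (CD45) UMI 1.76%, 2.76% and 1.92% against 0.138% and 0.376%. With every cell thinned to 1000 UMIs before gating they were 0.666%, 1.07% and 0.581% against 0.0532% and 0.0606%. Stray XCR1 RNA was gauged in CD3E-positive cells, which should lack the gene. An XCR1 UMI was found in 0.695%, 0.892% and 0.615% of them in the controls (median depths 3597.5, 3759.5 and 3725.5 UMIs) and in 0.625% and 1.36% in the grafts. Among cells with 10 or more HLA-DRA and CD74 UMIs the same measure was 9.25%, 10.4% and 9.73% in the controls and 2.37% and 4.45% in the grafts. In every library the second measure was the higher. The 2 sets of cells were not matched for depth, and how much of the XCR1 counts is stray RNA was not tested.

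**Figure D4:**
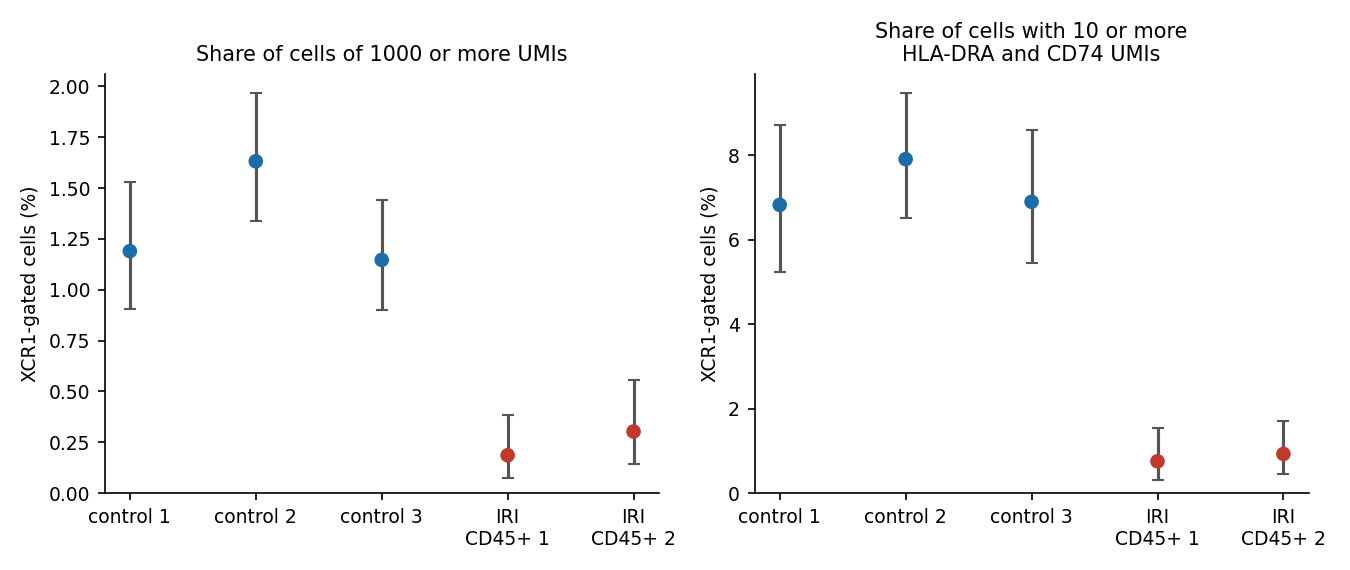
XCR1-gated cells as a percentage of cells of 1000 or more UMIs (left) and of cells with 10 or more HLA-DRA and CD74 UMIs (right), per library, with 95% exact Clopper-Pearson intervals for counting error. The 3 unsorted controls lie between 1.15% and 1.63% on the left, above the 2 sorted graft libraries at 0.186% and 0.303%.

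Most of the 17 gated cells of the grafts showed fewer identity genes than the control cells. Thinned to 1000 UMIs they showed a median of 2 and 3 identity genes, against 6, 5 and 6 in the controls, and 0 of 7 and 1 of 10 reached 5. Of monocyte and macrophage markers they held a median of 1 and 4.5 UMIs, against 0 in each control, and 2 of 7 and 5 of 10 had 5 or more, against 0 of 59, 1 of 107 and 1 of 73. Of the 17 cells 9 had a single XCR1 UMI. Among the 3 with 5 or more XCR1 UMIs, none (0) had a monocyte or macrophage UMI after thinning. In the grafts these cells are therefore called by the rule only.

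**Figure D5:**
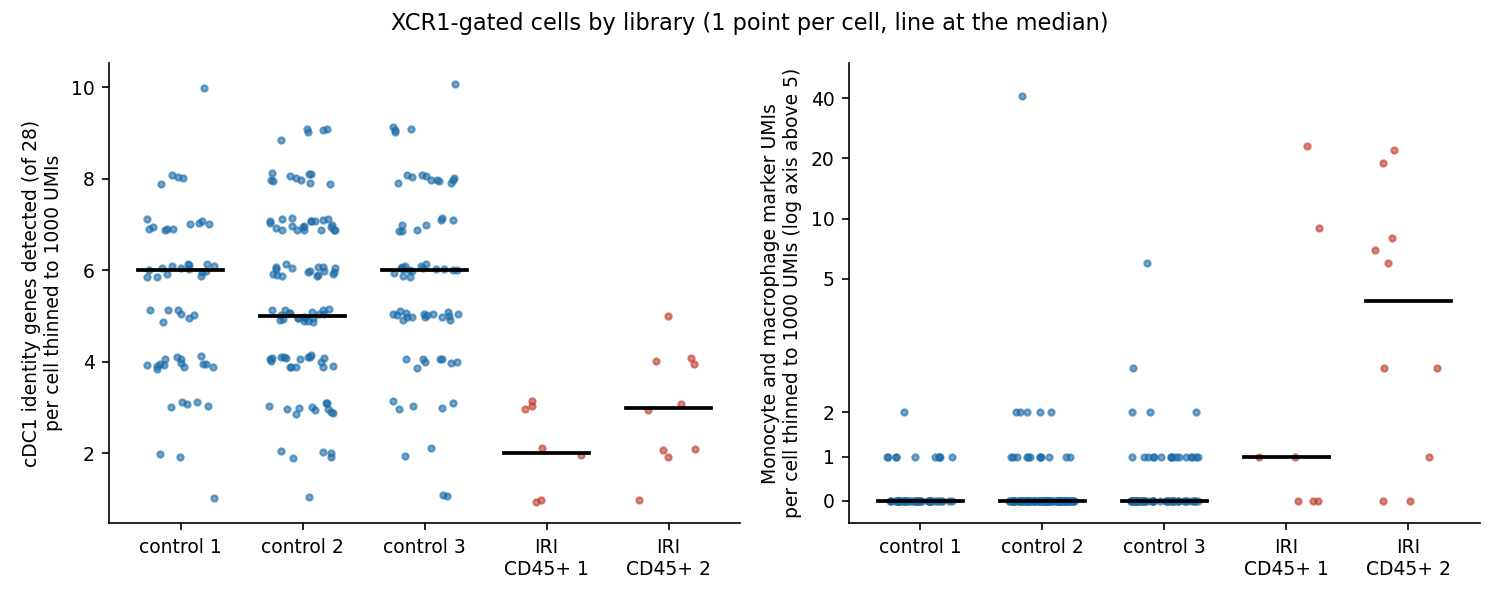
Each XCR1-gated cell thinned to 1000 UMIs, by library: cDC1 identity genes detected of 28 (left, points spread slightly in height) and UMIs of 25 monocyte and macrophage markers (right, log axis above 5); the line is the median. Control cells centre on 5 or 6 identity genes with few monocyte or macrophage UMIs, and the graft cells on 2 or 3.

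In gene levels, only graft replicate 2, with 10 cells, could enter a test against the 3 controls. Of the 93479 UMIs of these cells over all genes, 23786 and 21616 came from 2 cells. Values here are CPM over the 23668 genes listed in all 5 libraries, from 93391 UMIs in graft replicate 2 and 49698 in graft replicate 1. Of 7420 genes 498 were higher (6.71%) and 816 lower (11.0%) in that single library, together 17.7%. DESeq2 called 223 higher and 154 lower, and thinned sums gave 372 lower. The test borrows the spread of the controls for it. Its value lay outside the range of the controls for 85.2% of the genes. The fitted median over all genes was -0.53 (-0.47 with another scaling), and 0.00 with genes at 0 UMIs put at their bound, so single differences are to be read against it. Genes listed and counted differed between control and graft libraries, which cannot be told apart from the graft and the sort.

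Identity genes were mostly lower: 13 of 23, with RAB7B higher (1.96, SE 0.34) and 9 not passing; the median was -2.09, or -1.68 with bounds. CST3 stood at 25468, 24266 and 23806 CPM in the controls and at 7968 and 5525 CPM in the grafts. Its fitted difference was -2.31 (SE 0.16), for graft replicate 2 alone and with the spread of the controls only. CADM1 stood at 353, 323 and 379 CPM and had 0 UMIs in graft replicate 1 and 5 in graft replicate 2 (53.5 CPM, 95% Poisson interval 17.4 to 125). The fitted difference of CADM1 was -2.86 (SE 0.44), again for graft replicate 2 alone. Both graft libraries lay below all controls. C1orf54 had 3 UMIs in each graft library, a ratio of 34.6 (11.8 to 168) between the controls and graft replicate 2. WDFY4 (-2.09, SE 0.35), IRF8 (-1.49, SE 0.20), ID2 (-1.74, SE 0.22) and BATF3 (-1.37, SE 0.31) were lower, and FLT3, at 204, 227 and 187 against 40.2 and 161 CPM, did not pass (-0.52, SE 0.37, adjusted p = 0.315). ANPEP and DNASE1L3, 2 genes most like XCR1 in the controls, had 0 UMIs in graft replicate 2, at least 5.63-fold and 5.78-fold lower, and 0 and 4 UMIs in graft replicate 1. SLA-DQB1 (-1.76, SE 0.16) and CD83 (-1.27, SE 0.20) were lower as well.

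Of the macrophage list 4 of 8 tested genes were higher (CSF1R, CD14, GPNMB and CD68), and of the monocyte and neutrophil list 1 of 6 (MMP9). Of 20 immediate early and stress genes 5 were higher and 6 lower. IER3 stood at 34.2, 68.1 and 42.1 against 3602 and 1242 CPM (4.48, SE 0.26), and in all cells at 188, 257 and 298 against 750 and 1227 CPM. CTSB (3.33, SE 0.16), LGMN (4.09, SE 0.29), CEBPB (3.75, SE 0.36), CD14 (4.92, SE 0.77, and adjusted p = 0.309 with DESeq2), CSF1R (4.08, SE 0.57), NFKBIA (2.19, SE 0.17), ISG15 (2.17, SE 0.21) and IL7R (4.93, SE 0.63) were higher too. Beside these, the macrophage list summed to 1025 and 1145 CPM and the monocyte and neutrophil list to 6132 and 3038 CPM in the gated graft cells; their part in the result was not tested.

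The largest differences upward were in genes nearly absent from the control cells. ARG1, the arginase of myeloid cells, had 3 UMIs in all gated control cells and 436 in graft replicate 2, a ratio of 3277 (95% counting interval 1114 to 15953), and 265 in graft replicate 1. All cells of the graft libraries also held more of it, 1777 and 3893 CPM against 92.2, 119 and 112 CPM. The cytokine OSM had 1 UMI in control cells and 54 in graft replicate 2, a ratio of 1218 (209 to 48974). With 0 UMIs in the controls, the protease gene MMP8 was at least 195-fold higher, the IL-2 receptor chain IL2RA 188-fold, CCR1 158-fold, and MMP9 and RETN each 150-fold; MMP8 had 0 UMIs in graft replicate 1. TGM3, EMP1 and SLC11A1 completed the 10 named genes. MMP8, MMP9 and RETN are known neutrophil genes. Each of the 10 also had a higher level over all cells of both graft libraries than of any control.

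Several of the largest differences downward held for the libraries as a whole. COL19A1 had 0 gated UMIs in both grafts against 1135, 1116 and 922 CPM in the controls, at least 33.1-fold lower, and in all cells 2.03 and 1.91 CPM against 1056, 964 and 750 CPM. CTNNA3 (at least 20.9-fold lower), KLHL3, PODN and EXOC6B had 0 gated UMIs in both grafts and were also several times lower over all their cells, and ACTB stood at 176 and 151 CPM against 1388, 1283 and 1290 CPM in all cells. These differences were thus shared by all cells of the libraries. CNOT6L and ZBTB10, at least 7.14-fold and 5.17-fold lower in graft replicate 2, did not differ in that way, with 158 and 122 against 143, 155 and 153 CPM of CNOT6L in all cells.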

How the data were processed

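The deposited matrices hold UMI counts per gene and cell, made with PISA, per the file headers, with R 4.2.2, Seurat 5.5.3 and the pig build Sscrofa11.1 named in the submitters' processing notes. Aligner and annotation: not given in the sources used here. Libraries were DNBelab C droplet libraries, per the labels' protocols. Counts were used as deposited, and 139 of 17062 identifiers without a symbol were paired with one from a RefSeq table. The members and the gene lists were chosen with earlier results of these data known.

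UMIs were summed per library and gate and fitted with edgeR 4.0.16 (R 4.3.3; TMM scaling, filterByExpr, robust quasi-likelihood fit, library as block within the controls because both gates come from the same library; Benjamini-Hochberg adjusted p under 0.05). A sum needed 20 cells, or 10 where 20 was not reached. The SE was taken from the log2 difference and its F statistic. CPM are not TMM-scaled. Shares used exact permutation and Clopper-Pearson intervals (Python 3.11.15, scipy 1.17.1); cells were thinned to 1000 UMIs where depth mattered, and doublet scores came from Scrublet (scanpy 1.11.5). The scripts were tested on simulated counts. Named genes were the 10 with the largest fitted difference in each direction among called genes with a symbol, at least 50 CPM in the higher gate and no overlap, beside list members of smallest p or highest level; other genes were chosen after their values were seen. Alternatives were DESeq2 1.42.0, other scaling, no filter, each library left out, 2 or more XCR1 UMIs, high doublet scores removed and thinned sums. CD45-negative cells, cells gated on FCER1A or CLEC10A (2, 6 and 7 in the controls, too few to sum) and the promoters of the genes were not analysed here. Results for 2 genes are not reported here.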

Additional observations from a re-analysis of the deposited data

How the results depend on the processing

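Against the CCL22 gate, where the fit has the library as block, 120 genes were higher and 255 lower; without the block the counts were 126 and 262, with DESeq2 53 and 136, with no filter on low counts 202 higher, and with sums thinned to the smallest 139 lower. Leaving out each control in turn gave 4 to 95 higher and 25 to 212 lower, the lowest of both without control 2. With CCL22-gated cells of 0 XCR1 UMIs, chosen after seeing the data, 242 were higher. The 48 called genes named in that comparison kept their direction in each leave-one-out fit that tested them. FLT3, not called there, ranged from -0.27 without control 2 to 0.14 without control 1. Against the CD163 gate the counts without the block were 1815 and 1923, and every alternative stayed within 1.5 times. Between cells with and without IDO1, the counts higher and lower were 0 and 0 without the block, 1 and 0 with DESeq2, 28 and 15 with no filter, 7 and 3 with thinned sums, and 22 and 16 without cells of 10 or more structural UMIs, the last chosen after seeing the data. For graft replicate 2, DESeq2 gave 223 higher and 154 lower, and thinned sums 372 lower. No paired analysis was possible because control and graft libraries were not tied to the same animals and 1 graft library entered the fit. Leaving out graft replicate 2 leaves no library to test, and graft replicate 1 did not enter. Of 1397 values of single genes under alternatives, 1296 kept direction and call, 87 lost the call, 13 gained it and 1 changed sign. The share of gated cells was higher in every control than in both grafts under each alternative, by 0.715 to 1.17 percentage points of cells of 1000 or more UMIs, and by 1.58 of cells of 2000 or more. The cause of these shifts was not tested. Depth limits what single cells show: identity genes detected rose from a median of 5 or 6 after thinning to 13 before it in the controls.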

Other observations

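In the CD45-negative graft library the same counts picked 15 cells, with a median of 5348 UMIs and of 1 XCR1 UMI. After thinning they showed a median of 1 cDC1 identity gene, and 2 of 15 (13.3%) reached 5. Structural-cell markers summed to 70183 CPM in them, against 914 CPM or less in the XCR1 gate of any other library, and 13 of the 15 held 10 or more structural UMIs.

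CCR7, the lymph-node homing receptor, had a UMI in 33.9%, 26.2% and 39.7% of XCR1-gated control cells and in 25.0%, 29.6% and 26.1% of CD163-gated cells. After thinning to 1000 UMIs the shares were 8.47%, 12.1% and 20.5% against 9.12% to 11.2% of CD163-gated cells. The share of control 1 lay below that range, that of control 2 just above it and that of control 3 well above it. Before thinning, the highest CCR7 count of an XCR1-gated cell was 28 UMIs in control 1, 32 in control 2 and 46 in control 3. How much of these shares is stray RNA was not tested. CXCL9, a chemokine for activated T cells, stood at 263, 725 and 879 CPM in XCR1-gated control cells, 1509 CPM in graft replicate 1 and 0 in graft replicate 2 (edgeR adjusted p = 0.260 for graft replicate 2).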
